A study of Mus musculus with 18 samples.

Results

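The comparison described here is that of striatal RNA from zQ175 knock-in mice with striatal RNA from wild-type (WT) mice. Its members are the 5 libraries labelled as zQ175 and the 5 labelled as WT, 10 of the 18 libraries of the series, and every gene with enough counts, 20914 of the 55421 genes in the table. The zQ175 mice were heterozygous knock-ins on the C57BL/6 background (C57BL/6J in the study's methods) that carry an expanded CAG repeat in a chimeric human/mouse exon 1 of Htt, in every cell and under the gene's own promoter, and the WT mice carried no knock-in allele. All were 12 to 14 months old, and each library came from 1 mouse, unpooled. The other 8 libraries, which enter the fit and serve here for comparison, came from 3 CK2α’(+/-) mice, which lack 1 allele of Csnk2a2, and 5 zQ175:CK2α’(+/-) mice, which carry both changes.

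Huntington's disease is caused by the CAG expansion in HTT, and the neurons lost first are the medium spiny projection neurons (MSNs) of the striatum. MSNs fall into a direct pathway class, which uses dopamine receptor D1, substance P and dynorphin, and an indirect pathway class, which uses dopamine receptor D2, an adenosine receptor and enkephalin. Both classes share a signalling set built on cyclic AMP (adenylyl cyclase 5, phosphodiesterases, DARPP-32), and lowered RNA of these genes is a known feature of mouse models of the disease. Bulk RNA holds all cells of the tissue, so that fewer cells of a type and less RNA per cell cannot be told apart.

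Total counts lay between 14176224 and 22184692 in WT libraries and between 15159248 and 21168671 in zQ175 libraries. Levels are given as CPM, the counts per library scaled to a common size by TMM, and a gene passed at an edgeR adjusted p (FDR) under 0.1. Markers of MSNs were abundant in every library, as the label of striatum implies, with a sum over 29 shared MSN markers of at least 5282 CPM. Other tissue differed between libraries. Choroid plexus markers summed to 2180 CPM in WT library 1 and 1816 CPM in WT library 3 and to at most 27.7 CPM in the other 8, thalamic markers reached 1007 CPM in zQ175 library 1 against at most 347 CPM elsewhere, and hippocampal markers reached 116 and 160.2 CPM in zQ175 libraries 1 and 5 against at most 80.1 CPM in the rest. Prox1 alone gave 90.8 and 93.3 CPM of these hippocampal sums, against at most 61.9 CPM in the rest. Transcripts of the Y chromosome were found in WT library 1 and in zQ175 libraries 1, 3 and 5, and zQ175 library 3 also held Xist at 47.0 CPM. By the study's methods the WT mice were mostly female and the zQ175 mice mostly male, so that sex was unbalanced between the groups. It was unbalanced the other way in the comparison mice, mostly male with the CK2α’ change alone and mostly female with both changes.

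The libraries labelled WT 4 and WT 5 went against their label for part of the genes. This was measured on 124 genes that were chosen without a comparison of these 10 libraries, those that passed between zQ175:CK2α’(+/-) and CK2α’(+/-) mice (0.593% of the genes tested). For each library, the position between those groups was taken over the 124 genes, with 0 at the CK2α’(+/-) mean and 1 at the zQ175:CK2α’(+/-) mean. The median position was 0.27, 0.16 and 0.24 in WT libraries 1 to 3, and 0.85 and 0.82 in the libraries labelled WT 4 and WT 5. It lay between 0.88 and 0.98 in the 5 zQ175 libraries. The libraries labelled WT 4 and WT 5 were nearer to the zQ175:CK2α’(+/-) mean in 98 and 99 of the 124 genes, against 34, 30 and 23 genes in WT libraries 1 to 3. Results that rest on these libraries are therefore given with and without them, and the second form was chosen after the values were seen. Since the pair was singled out on the 124 genes, a larger difference without it in genes of that kind follows from the choice.

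**Figure D1:**
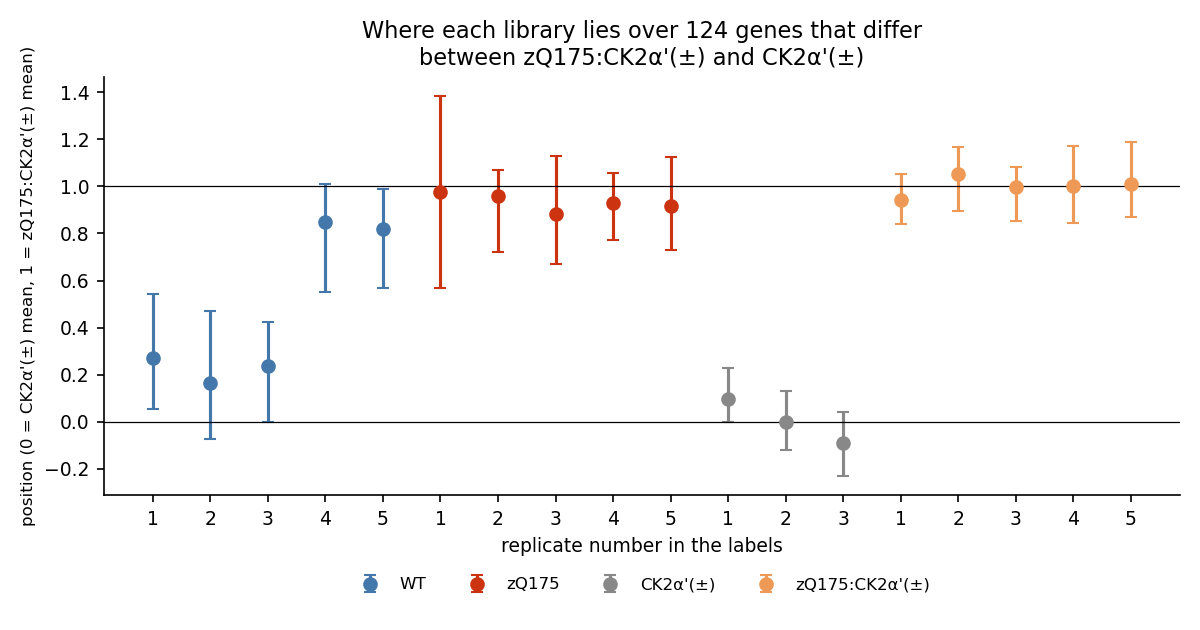
Position of each library between the CK2α’(+/-) mean (0) and the zQ175:CK2α’(+/-) mean (1), as the median over the 124 genes that passed between those groups, with the bars the quartiles over genes. WT libraries 1 to 3 lie at 0.16 to 0.27, while the libraries labelled WT 4 and WT 5 lie at 0.85 and 0.82, beside the zQ175 libraries at 0.88 to 0.98.

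The genotype of the CK2α’ locus followed the labels, with Csnk2a2 at 29.4 to 35.0 CPM in WT libraries, 32.0 to 37.5 CPM in zQ175 libraries and 14.7 to 19.9 CPM in the 8 libraries with 1 allele. Htt itself (chromosome 5, 34761740 to 34912534, GRCm38) gave 161, 188, 164, 135 and 129 CPM in WT libraries 1 to 5 and 165, 139, 156, 152 and 141 CPM in zQ175 libraries 1 to 5. The groups overlapped, and the log2 fold change of -0.04 did not pass (SE 0.09, FDR = 0.876). It was -0.19 (FDR = 0.359) without the libraries labelled WT 4 and WT 5. Htt lay at 168 to 187 CPM in CK2α’(+/-) and at 119 to 151 CPM in zQ175:CK2α’(+/-) libraries, without overlap (log2 fold change -0.37, FDR = 0.168), and the libraries labelled WT 4 and WT 5 lay inside the second range. Reads counted per gene do not separate the knock-in allele from the mouse allele.

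With all 10 libraries, 230 genes passed (1.1% of those tested), of which 81 were higher in zQ175 striatum (0.387%) and 149 were lower (0.712%). Differences were mostly modest. The median fold was 1.49 in either direction, 43 of the 81 higher genes and 78 of the 149 lower genes differed by less than 1.5-fold, and 23 and 27 reached 2-fold. In 139 of the 230 genes the WT and zQ175 libraries did not overlap, which was so for 2.44% of all genes tested. Protein-coding genes made up 138 of the lower genes and 48 of the higher ones. Leaving out the libraries labelled WT 4 and WT 5 raised the number of genes that passed to 515 (2.5% of 20629), 179 higher (0.868%) and 336 lower (1.63%), of which 158 were shared with the 230 and had the same direction. The count rested on single libraries, since it was 0 without WT library 3 (2367 genes at an unadjusted p under 0.05) and 0 without zQ175 library 5 (2566 genes), 10 without WT library 1 and 587 without WT library 2. A fit of only these 10 libraries passed 0 genes (edgeR, 2337 at an unadjusted p under 0.05).

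In 29 of the 230 genes the libraries labelled WT 4 and WT 5 were nearer to the zQ175 mean, and in 201 nearer to WT libraries 1 to 3. The 29 genes (4 higher, 25 lower) included MSN genes such as Scn4b, Adora2a, Penk and Ppp1r1b, and the 201 included all 14 ribosomal and 3 complement genes below. The median size of the log2 fold change was 1.06 in the 29 and 0.55 in the 201. A gene whose pair lies near the zQ175 mean needs a larger difference from the other WT libraries to pass with all 10. The choice thus favours larger sizes in the 29. In the comparison mice the median in the same direction was 1.14 in the 29 and 0.15 in the 201. All 29 and 158 of the 201 had the same direction there. There 15 and 10 passed (0.593% of all genes did), which are among the 124 genes on which the pair was singled out. The cause of the gap was not tested.

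Among MSN genes the indirect pathway class had the lowest values in zQ175 striatum. All 6 measured markers of that class lay below 0, the median log2 fold change being -0.77 against 0.00 over all genes, and 2 passed, Adora2a and Penk. Of 29 markers shared by both MSN classes, 27 lay below 0 with a median of -0.43, and 2 passed, Scn4b and Ppp1r1b. Of 9 direct pathway markers, 7 lay below 0 with a median of -0.15, and 0 passed (edgeR). Over all genes tested 1.1% passed, 0.712% as lower. Without the pair labelled WT 4 and WT 5, passing markers were 4 of 6 indirect, 16 of 29 shared and 2 of 9 direct. Each was lower in zQ175, and the medians were -1.13, -0.65 and -0.16. In that form 2.5% of all genes passed, 1.63% as lower.

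Scn4b (chromosome 9, 45138395 to 45154152, GRCm38), the sodium channel β4 subunit that shapes resurgent current in MSNs, measured 492, 687 and 478 CPM in WT libraries 1 to 3, 239 and 210.3 CPM in the libraries labelled WT 4 and WT 5, and 159, 199.8, 180.1, 246 and 200.2 CPM in zQ175 libraries 1 to 5. WT libraries 1 to 3 were all higher than every zQ175 library, while those labelled WT 4 and WT 5 fell inside the zQ175 range. The group means were 421 ± 198 CPM and 197 ± 32.0 CPM (SD, n = 5 each), a log2 fold change of -1.10 (SE 0.22, FDR = 0.0469). Without the libraries labelled WT 4 and WT 5 it was -1.49 (SE 0.14, FDR = 1.13e-05). Scn4b was among the 124 genes on which the pair was singled out, so that this larger difference follows from the choice.

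Adora2a (chromosome 10, 75316877 to 75334784), the adenosine receptor of the indirect pathway, had a similar arrangement, at 134, 174 and 119.8 CPM in WT libraries 1 to 3, 48.9 and 62.0 CPM in those labelled WT 4 and WT 5, and 33.2 to 57.4 CPM in zQ175 libraries. The library labelled WT 4 fell inside the zQ175 range and that labelled WT 5 just above it. Its log2 fold change was -1.12 (SE 0.25, FDR = 0.0557) with all libraries and -1.53 (FDR = 5.71e-05) without the pair. Penk (chromosome 4, 4133531 to 4138819), the enkephalin precursor, measured 917, 1214, 795, 496 and 491 CPM in WT libraries 1 to 5 and 229, 464, 456, 441 and 364 CPM in zQ175 libraries 1 to 5. Here the groups did not overlap, although the libraries labelled WT 4 and WT 5 were the lowest WT libraries and lay next to the highest zQ175 library. The log2 fold change was -1.00 (SE 0.23, FDR = 0.061), and -1.32 (FDR = 0.0029) without the pair. Adora2a and Penk were among the 124 genes too, so that their larger differences without the pair follow from the choice. Ppp1r1b (chromosome 11, 98348404 to 98357796), which encodes DARPP-32, fell by 0.85 on the log2 scale (SE 0.21, FDR = 0.0765) from 940.2 ± 255 CPM to 520.2 ± 143 CPM (SD, n = 5 each), and by 1.10 (FDR = 0.0111) without the pair.

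The dopamine receptors were chosen after their values were seen. Drd2, which marks the indirect pathway, measured 126, 209, 117, 79.5 and 70.5 CPM in WT libraries 1 to 5 and 55.0 to 88.4 CPM in zQ175 libraries, a log2 fold change of -0.68 that did not pass (FDR = 0.155). Drd1, which marks the direct pathway, had a log2 fold change of -0.62 (FDR = 0.211). With the libraries labelled WT 4 and WT 5 left out both passed, Drd2 at -1.00 (FDR = 0.00734) and Drd1 at -0.93 (FDR = 0.0343). Pde10a, the phosphodiesterase most typical of MSNs, followed them, at -0.66 (FDR = 0.188) with all libraries and -1.03 (FDR = 0.00659) without the pair. Tac1, the substance P precursor of the direct pathway, overlapped between the groups in either form, with 82.1 to 104 CPM in WT libraries and 41.9 to 91.1 CPM in zQ175 libraries (log2 fold change -0.27, FDR = 0.488). Among zQ175 libraries, library 1, the one with the high thalamic sum, was the lowest for Drd1, Tac1, Drd2, Pde10a, Penk, Adora2a, Scn4b and Ppp1r1b. Its sum over the 29 shared MSN markers was 5282 CPM, against 8155 to 9243 CPM in the other zQ175 libraries, and the part of thalamic tissue in these values was not tested.

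**Figure D2:**
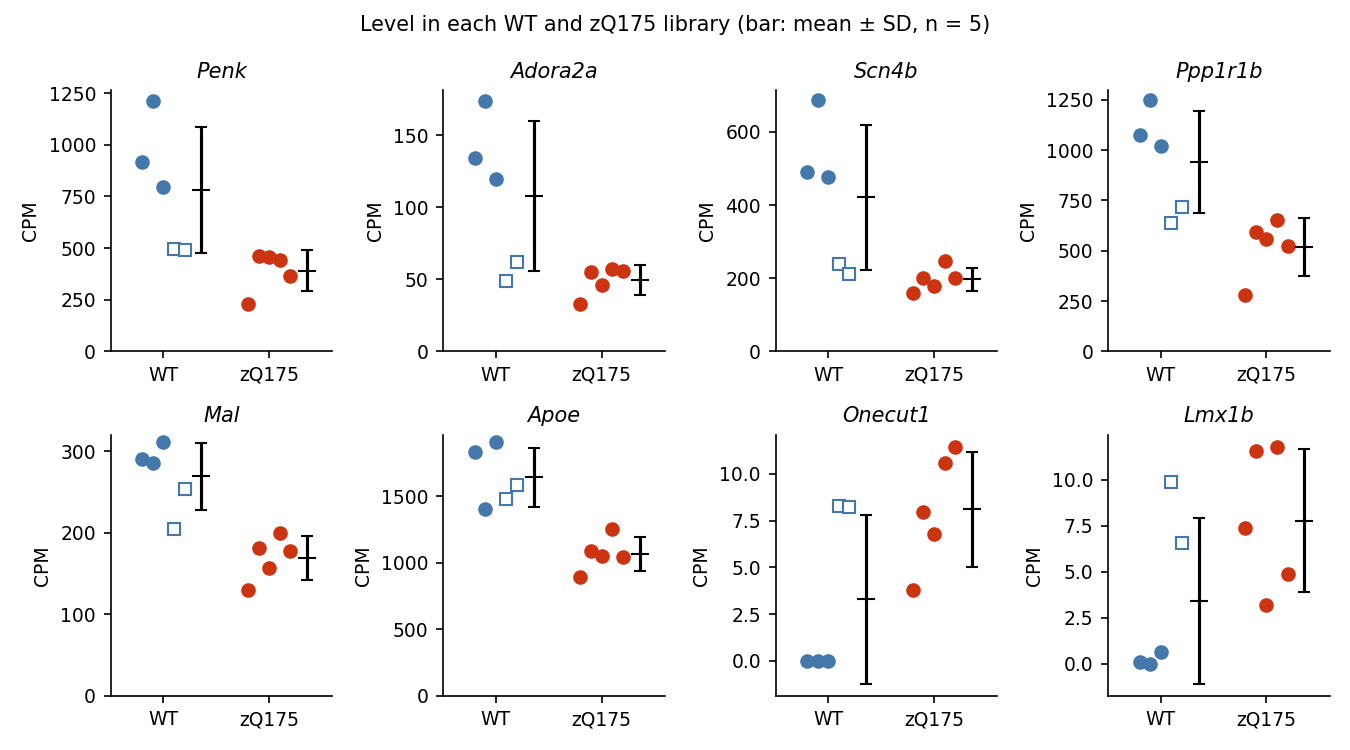
Level in CPM of 8 genes in each of the 10 libraries (points), with the mean ± SD of each group beside them and open squares for the libraries labelled WT 4 and WT 5. For Scn4b these lie at 239 and 210.3 CPM, inside the zQ175 range of 159 to 246 CPM, and below WT libraries 1 to 3 at 478 to 687 CPM.

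Of 27 calcium sensors and calmodulin partners measured, 3 passed, all lower (Pcp4l1, Pcp4 and Ryr1), and 8 passed without the pair labelled WT 4 and WT 5. The shares of all genes that passed were 1.1% with all libraries and 2.5% without the pair. Of 17 GABA receptor genes 1 passed, Gabrd, which was lower, while 10 of the 17 lay above 0 and the median was 0.06 on the log2 scale. Pcp4l1 and Pcp4, small proteins that bind calmodulin, fell by 0.48 (FDR = 0.0442) and 0.62 (FDR = 0.0469) on the log2 scale, without overlap between the groups, and Gabrd, the δ subunit of extrasynaptic GABA-A receptors, fell by 0.64 (FDR = 0.0469) from 48.4 ± 9.52 CPM to 31.0 ± 1.78 CPM (SD, n = 5 each). Gabrd measured 53.4, 54.5, 55.8, 33.0 and 45.1 CPM in WT libraries 1 to 5 and 28.6 to 32.9 CPM in zQ175 libraries. Ryr1 (chromosome 7, 29003344 to 29125179), a calcium release channel of the endoplasmic reticulum, had the larger change, at 81.4, 153 and 130.4 CPM in WT libraries 1 to 3, 40.2 and 25.5 CPM in those labelled WT 4 and WT 5, and 13.6 to 42.7 CPM in zQ175 libraries. Its log2 fold change was -1.65 (SE 0.37, FDR = 0.0594), and -2.16 (FDR = 0.000526) without the pair. Ryr1 was among the 124 genes on which the pair was singled out, so that this larger difference follows from the choice. Gabrd, Pcp4l1, Pcp4 and Ryr1 passed also between zQ175:CK2α’(+/-) and CK2α’(+/-) mice, with log2 fold changes of -1.03, -0.50, -0.99 and -2.09 (edgeR FDR 0.00194, 0.0371, 0.0038 and 0.0388).

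Onecut1, Hoxc4, Lmx1b and Wt1, 4 developmental transcription factors, were at or near 0 in WT libraries 1 to 3 and present in every other library that carried the knock-in or was labelled WT 4 or WT 5. None of these passed with all 10 libraries, and they were chosen after the values were seen, for this pattern and from no list. Onecut1 (chromosome 9, 74861921 to 74891781), a factor of liver and motor neuron development, had 0 counts in WT libraries 1 to 3, where a count of 0 allows up to 0.204 CPM in a library. It measured 8.26 and 8.25 CPM in the libraries labelled WT 4 and WT 5, and 3.80, 7.94, 6.76, 10.6 and 11.5 CPM in zQ175 libraries 1 to 5. With all 10 libraries the log2 fold change was 1.26 (FDR = 0.508). In the other mice Onecut1 lay at 0 to 0.303 CPM in CK2α’(+/-) libraries and at 7.82 to 11.2 CPM in zQ175:CK2α’(+/-) libraries.

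Hoxc4 (chromosome 15, 103018934 to 103036852), a homeobox gene of the body axis that the adult forebrain does not normally use, had 0 counts in WT libraries 1 to 3 and measured 13.2 and 7.92 CPM in the libraries labelled WT 4 and WT 5 and 2.86 to 14.0 CPM in zQ175 libraries. Lmx1b (chromosome 2, 33560965 to 33640511), a factor of dopaminergic and serotonergic neurons, lay at 0 to 0.613 CPM in WT libraries 1 to 3, at 9.86 and 6.53 CPM in those labelled WT 4 and WT 5, and at 3.20 to 11.8 CPM in zQ175 libraries. Wt1, a zinc finger factor of kidney development, lay at 0 to 0.168, at 4.53 and 3.71, and at 1.36 to 4.87 CPM in the same 3 sets. Of 7 Hox genes measured, 0 passed with all libraries (edgeR), where 1.1% of all genes did. Without the pair 4 passed, all higher, where 2.5% of all genes did. Their sum was at most 0.408 CPM in WT libraries 1 to 3, so that a higher value without the pair follows from the choice. More abundant genes shared the arrangement. Polr2a and Sfmbt2 were also chosen after the values were seen, so that their larger difference without the pair follows from the choice. Polr2a, the large subunit of RNA polymerase II, measured 125, 113 and 108 CPM in WT libraries 1 to 3, 204 and 185 CPM in those labelled WT 4 and WT 5, and 155 to 205 CPM in zQ175 libraries. Sfmbt2, a polycomb group protein, rose by 1.82 on the log2 scale without the pair (FDR = 0.000112) and did not pass with all libraries (log2 fold change 1.01, FDR = 0.108).

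The promoter sequences of these genes are shown because genes of both directions had the same ordering of libraries. The 150 bases before the RefSeq start (GRCm38.p6) are given 5′ to 3′ on the gene's strand, with each CG dinucleotide in capitals. The first is from a gene at 0 counts in WT libraries 1 to 3 (chr9:74861771-74861920, plus strand, 21 CG), the next from another near 0 there (chr2:33641099-33641248, minus strand, 13 CG), and the last from a gene lower in zQ175 (chr7:29125152-29125301, minus strand, 6 CG).
Onecut1: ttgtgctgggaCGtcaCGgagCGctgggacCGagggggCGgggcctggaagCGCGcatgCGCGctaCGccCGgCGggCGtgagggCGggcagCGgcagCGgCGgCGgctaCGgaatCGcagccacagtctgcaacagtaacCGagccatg
Lmx1b: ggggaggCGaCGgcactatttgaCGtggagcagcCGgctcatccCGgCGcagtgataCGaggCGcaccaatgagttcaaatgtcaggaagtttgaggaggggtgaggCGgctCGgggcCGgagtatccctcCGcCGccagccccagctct
Ryr1: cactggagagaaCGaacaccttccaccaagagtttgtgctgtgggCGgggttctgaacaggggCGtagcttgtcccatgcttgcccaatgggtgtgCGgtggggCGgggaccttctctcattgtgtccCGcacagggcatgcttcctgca
Of the promoters of tested genes in the RefSeq table, 92.4% hold at most as many CG as Onecut1 in this window, 66.2% as Lmx1b and 30.8% as Ryr1. The windows of Scn4b and Pcp4l1, other lower genes that are not shown, hold 9 and 3 CG. Where a promoter was listed, the median was 10 CG over all genes tested. It was 12 in higher and 8 in lower genes with all 10 libraries, and 10 in both without the pair. CG content is given as a description of these windows and sets, was not tested between directions, and methylation was not measured.

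Mature oligodendrocytes are the myelin-forming cells. All 15 of their measured markers lay below 0 in zQ175 striatum, at a median of -0.42 on the log2 scale. Of these 7 passed, among them Mal, Cldn11, Mbp, Mobp and Cnp, where 1.1% of all genes did. Mal (chromosome 2, 127633226 to 127656695), a proteolipid of compact myelin, measured 290.0, 286, 311, 204 and 254 CPM in WT libraries 1 to 5 and 129.7, 182, 156, 200.2 and 177 CPM in zQ175 libraries 1 to 5, without overlap (log2 fold change -0.67, SE 0.12, FDR = 0.0442). Cldn11, a claudin of the myelin sheath, fell by 0.67 on the log2 scale (FDR = 0.0442), and Mbp, myelin basic protein, by 0.58 (FDR = 0.0469). Mag, a glycoprotein of the inner myelin membrane chosen after its value was seen, had a log2 fold change of -0.37 (FDR = 0.195). The sum over the 15 markers was 6446 to 8744 CPM in WT libraries and 4244 to 6320 CPM in zQ175 libraries, without overlap. Without the libraries labelled WT 4 and WT 5 there passed 5 of the 15, and 2.5% of all genes. Between zQ175:CK2α’(+/-) and CK2α’(+/-) mice the median of the list was -0.15, 12 of 15 lay below 0 and 2 passed, both lower (0.593% of all genes passed). Of 12 markers of oligodendrocyte precursors and differentiating cells, 0 passed (edgeR), and their sum was 456 to 527 CPM in WT and 488 to 521 CPM in zQ175 libraries. Their median was -0.07 with all libraries and 0.04 without the pair, where Tnr, the extracellular matrix protein tenascin R, passed as higher (log2 fold change 0.34, FDR = 0.041).

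**Figure D3:**
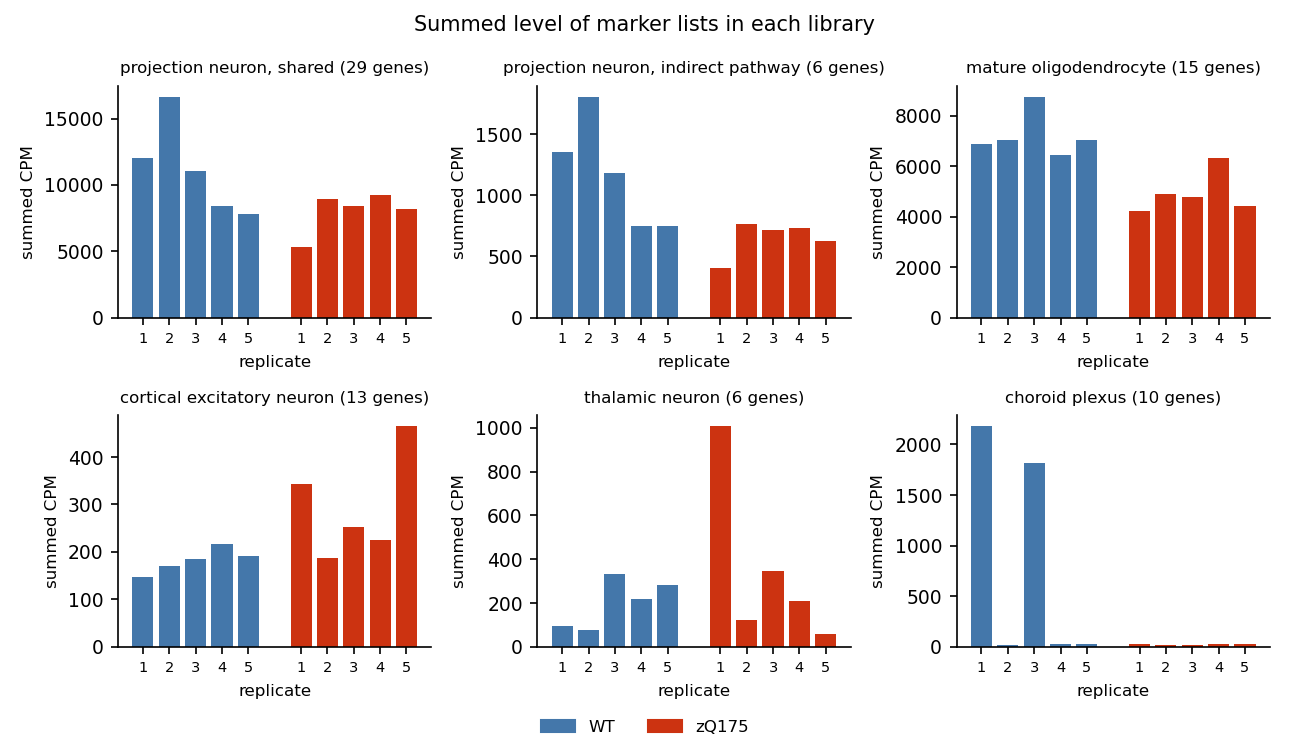
Summed CPM of 6 cell type marker lists in each library (bars, from 0). The mature oligodendrocyte sum is 6446 to 8744 CPM in WT libraries and 4244 to 6320 CPM in zQ175 libraries, and single libraries stand apart in the choroid plexus list (WT 1 and 3) and the thalamic list (zQ175 1).

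Apoe (chromosome 7, 19696109 to 19699188), the lipid carrier secreted mainly by astrocytes, had the lowest p of the lower genes. It measured 1834, 1408, 1912, 1479 and 1584 CPM in WT libraries 1 to 5 and 896, 1091, 1052, 1253 and 1043 CPM in zQ175 libraries 1 to 5. Every WT library, including those labelled WT 4 and WT 5, lay above every zQ175 library. Means were 1643 ± 221 and 1067 ± 128 CPM (SD, n = 5 each), a log2 fold change of -0.62 (SE 0.10, FDR = 0.0442). WT libraries 1 and 3, the highest for Apoe, were those with choroid plexus RNA, and the part of that tissue in the difference was not tested. Other genes of low p that fell without overlap were Ckb, brain creatine kinase (-0.48), Cryab, a small heat shock protein of glia (-0.66), Car2, a carbonic anhydrase of oligodendrocytes and choroid plexus (-0.66), and Tsc22d4, a leucine zipper regulator (-0.52), each at an FDR of 0.0442. Of 17 astrocyte markers 0 passed (edgeR), with a median of -0.13 on the log2 scale. In the form without WT 4 and WT 5 the median was -0.22 and Glul, glutamine synthetase, passed as lower (log2 fold change -0.49, FDR = 0.00485, against -0.31 and FDR = 0.196 with all libraries). Slc1a2, the main glutamate transporter, lay at 2078 to 3348 CPM in WT and 2097 to 2609 CPM in zQ175 libraries.

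The 3 genes of complement C1q, made by microglia, fell together. The log2 fold changes of C1qa, C1qb and C1qc were -0.64, -0.62 and -0.62 (FDR = 0.0707, 0.0946 and 0.0819), and C1qa measured 26.0 to 32.5 CPM in WT libraries and 13.8 to 27.2 CPM in zQ175 libraries, which overlapped. They were the 3 that passed of 19 microglial markers measured, where 1.1% of all genes passed, and 18 of the 19 lay below 0 with a median of -0.19. Without the libraries labelled WT 4 and WT 5, 0 of the 19 passed (edgeR), where 2.5% of all genes did. The log2 fold changes of C1qa, C1qb and C1qc were then -0.62 (FDR = 0.103), -0.44 (FDR = 0.25) and -0.48 (FDR = 0.212). Between zQ175:CK2α’(+/-) and CK2α’(+/-) mice they were 0.03, -0.08 and 0.17 (edgeR FDR 0.977, 0.945 and 0.856).

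The higher genes with the lowest p mostly differed by small folds. Vps13c (chromosome 9, 67840396 to 67995638), a lipid transfer protein of the endoplasmic reticulum and lysosome, measured 119, 137, 135, 142 and 140.0 CPM in WT libraries 1 to 5 and 190.4, 157, 184, 163 and 219 CPM in zQ175 libraries 1 to 5, without overlap (log2 fold change 0.44, SE 0.08, FDR = 0.0442). Chl1, a neural cell adhesion molecule, rose by 0.57 (FDR = 0.0442) and the long noncoding RNA Kcnq1ot1, which is transcribed from the paternal allele, by 0.38 (FDR = 0.0469) on the log2 scale, again without overlap. Prkaa2, a catalytic subunit of AMP-activated kinase, rose by 0.53, Bicd1, a dynein adaptor, by 0.37, and Snhg14, the host RNA of imprinted snoRNAs, by 0.40 (FDR = 0.0469 each). Agfg1 rose by 0.36 (FDR = 0.0491) and Pura, a nucleic acid binding protein of neurons, by 0.34 (FDR = 0.0557). Itga4, an integrin of leukocytes and some neurons, rose by 1.44 (FDR = 0.0557) with overlap, at 2.64 to 4.77 CPM in WT libraries and 9.51, 6.32, 9.16, 4.68 and 18.9 CPM in zQ175 libraries 1 to 5, the highest being zQ175 library 5. All 10 higher and all 10 lower genes of lowest p also passed without the libraries labelled WT 4 and WT 5.

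Among genes that passed, with a mean of at least 1 CPM and no provisional symbol (Gm or Rik), changes without overlap were ranked. The largest increases belonged to genes of low level, and several were led by zQ175 library 5. Bdnf, the neurotrophin that cortical neurons supply to the striatum, measured 0.324 to 1.74 CPM in WT libraries and 10.1, 3.88, 2.09, 3.03 and 14.5 CPM in zQ175 libraries 1 to 5 (log2 fold change 2.72, FDR = 0.0726). Prdm8, a regulator of upper layer neurons, measured 28.8 CPM in zQ175 library 5 and 1.05 to 2.16 CPM in the other zQ175 libraries, against 0.0888 to 1.02 CPM in WT libraries (log2 fold change 3.31, FDR = 0.0905). Neither passed without the libraries labelled WT 4 and WT 5 (FDR = 0.163 and 0.181). Rtn4rl2, a homolog of the Nogo receptor, measured 0.656 to 5.70 CPM in zQ175 and 0.149 to 0.556 CPM in WT libraries, again highest in zQ175 library 5. C1ql2, a synaptic organizer of hippocampal mossy fibres, reached 10.3 CPM in zQ175 library 5 and overlapped between the groups. The excitatory marker Slc17a7 was highest in the same library, at 202 CPM against 29.1 to 66.8 CPM in the other zQ175 libraries and 11.9 to 32.2 CPM in WT libraries. Of 13 cortical markers 1 passed, Tbr1 (log2 fold change 1.27, FDR = 0.0902), with a list median of 1.27. The share of all genes that passed was 1.1% (0.387% higher), and 2.5% without the libraries labelled WT 4 and WT 5. In the form without WT 4 and WT 5, Tbr1 did not pass (FDR = 0.129), while Neurod2 and Bhlhe22 passed as higher and Rspo1 as lower, and in the other mice the list median was -0.13 with 8 of 13 below 0. The cortical sum was 146 to 217 CPM in WT and 186 to 465 CPM in zQ175 libraries. C1ql2 was the 1 of 5 hippocampal markers that passed, and 0 of 6 thalamic markers (median 0.64) and 0 of 10 choroid plexus markers (median -3.21) passed (edgeR). The part of tissue content in these increases was not tested. With zQ175 libraries 1 and 5 left out, the log2 fold change was 1.55 for Bdnf, 1.01 for Prdm8, 2.07 for Rtn4rl2 and 1.28 for Tbr1, in a fit in which 0 of all genes passed (edgeR, 2113 at an unadjusted p under 0.05), as without zQ175 library 5 alone. Nr4a2, an orphan nuclear receptor induced by activity, was more even, at 9.97 to 14.4 CPM in zQ175 libraries and 2.31 to 9.06 CPM in WT libraries (log2 fold change 1.28, FDR = 0.099). Iqcj was even too, at 1.72 to 1.97 CPM in zQ175 and 0.168 to 0.844 CPM in WT libraries. In the same ranking the largest decreases were Il17rc, an interleukin 17 receptor subunit (log2 fold change -1.55), Bcas1os2 (-1.50), Papln (-1.23), Ogg1, a DNA glycosylase for oxidized guanine (-1.19), and the keratin Krt77 (-1.18). Their edgeR FDR values were 0.0469 to 0.0972. Without the libraries labelled WT 4 and WT 5, 3 of these 5 passed, and Bcas1os2 (FDR = 0.143) and Ogg1 (FDR = 0.15) did not. Bcas1os2 is by its name an antisense transcript of Bcas1, and reads of overlapping genes cannot be told apart where counting ignores strand.

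Genes of translation and respiration lay below 0 by small differences. Of 83 cytosolic ribosomal protein genes 81 lay below 0, the median being -0.38 on the log2 scale, and 14 passed, all lower. Among all genes 1.1% passed, 0.712% as lower. Rps15, of the small subunit, measured 128, 80.5, 121, 116 and 132 CPM in WT libraries 1 to 5 and 69.1 to 86.9 CPM in zQ175 libraries (log2 fold change -0.56, FDR = 0.0469), so that WT library 2 fell inside the zQ175 range. The sum over the 83 genes behaved alike, at 4448 CPM in WT library 2, 5553 to 5983 CPM in the other WT libraries and 3698 to 4561 CPM in zQ175 libraries. Of 78 nuclear genes of oxidative phosphorylation 75 lay below 0 with a median of -0.28, and 4 passed, all lower (Ndufs7, Ndufb10, Uqcrq and Cox8a). None of the 15 genes encoded by mitochondrial DNA passed (edgeR), and their median was 0.04. Without the libraries labelled WT 4 and WT 5, 10 ribosomal protein genes and 2 oxidative phosphorylation genes passed, where 2.5% of all genes did (1.63% lower). The medians were then -0.30 and -0.16. Between zQ175:CK2α’(+/-) and CK2α’(+/-) mice they were -0.19 and -0.12, and 0 genes of either list passed (edgeR). Many ribosomal protein genes have processed pseudogenes, so that their counts are uncertain.

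Gene length went with the direction of change. Protein-coding genes under 10 kb from end to end had a median log2 fold change of -0.13, with 3 higher and 74 lower of 3462, and those over 300 kb had a median of 0.12, with 12 higher and 0 lower of 542. The share that passed was 2.22% and 2.21% in these classes, against 1.1% of all genes (0.387% higher and 0.712% lower). The classes between followed in order, at -0.03 (10 to 30 kb), 0.04 (30 to 100 kb) and 0.07 (100 to 300 kb). Without the libraries labelled WT 4 and WT 5 the medians of the shortest and longest class were -0.10 and 0.10, but 13 of the longest genes then passed as lower and 15 as higher, where 1.63% and 0.868% of all genes did. Between zQ175:CK2α’(+/-) and CK2α’(+/-) mice the medians were -0.03 and 0.00. Among the genes over 300 kb the median was 0.09 without zQ175 library 1 and 0.07 without zQ175 libraries 1 and 5. As the plot of level by gene length shows, WT library 2 lay with the zQ175 libraries in this ordering. Among noncoding gene classes, provisional and intronic models lay above 0. Of 1666 genes of the provisional class TEC in the GENCODE annotation, single-exon models to be experimentally tested, 21 were higher and 0 lower (1.26%, near the 1.1% of all genes) with a median of 0.27, and of 233 sense intronic transcripts 4 were higher and 0 lower (1.72%) with a median of 0.30. Both medians were 0.07 between zQ175:CK2α’(+/-) and CK2α’(+/-) mice. Relative to the WT mean, the TEC genes of WT library 2 lay at a median of 0.21, against -0.06 to 0.04 in the other WT libraries and 0.22 to 0.37 in zQ175 libraries. Sense intronic transcripts lie inside introns of other genes, and the strand setting of the counting is not given in the sources used here.

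**Figure D4:**
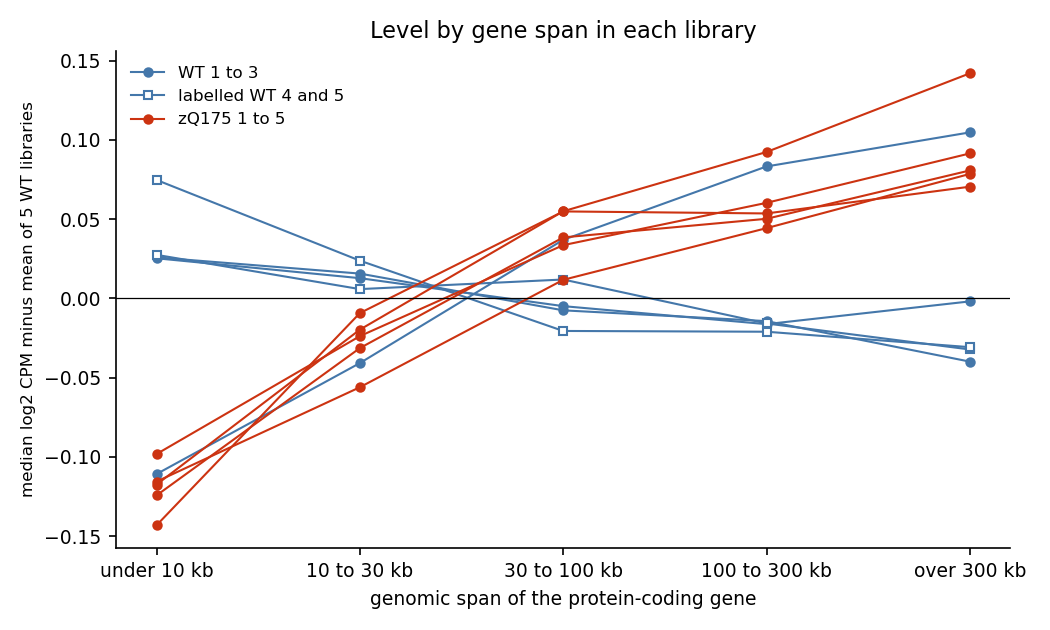
Median log2 CPM of protein-coding genes by length class in each library, relative to the mean of the 5 WT libraries, with open squares for the libraries labelled WT 4 and WT 5. WT library 2 lies with the zQ175 libraries, while WT libraries 1 and 3 and those labelled WT 4 and WT 5 lie mostly on the other side. The exception is the 30 to 100 kb class, where the library labelled WT 4 (0.0119) lies beside zQ175 library 2 (0.0117).

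The remaining gene groups are given as counts, to be read against the 1.1% of all genes that passed with all 10 libraries and the 2.5% that passed without the pair labelled WT 4 and WT 5. At these shares a list of this size holds few or no such genes, so that a count of 0 is no result about the list. With all 10 libraries, 0 members passed (edgeR) among 23 genes of cholesterol synthesis and uptake, 20 of synaptic vesicles and the active zone, 15 postsynaptic scaffolds, 18 interferon and antigen presentation genes, 11 p53 targets, 36 proteasome subunits, 25 glutamate receptors, 7 cholinergic and 12 GABAergic interneuron markers, and 15 endothelial and pericyte markers. Their medians ranged from -0.57 for cholinergic markers to 0.14 for vesicle genes. Without the pair, Sv2b of the vesicle genes and Shank2 of the scaffolds passed as higher and Grik2 of the glutamate receptors as lower, and 0 members of the other 7 lists passed (edgeR). Of 23 heat shock factors and chaperones 2 passed, Cryab and Hspb8, both lower. Of 15 autophagy and lysosome genes 1 passed, the protease Ctsd (log2 fold change -0.37, FDR = 0.0946), and of 78 potassium channel genes 1 (1.28%, near the share of all genes), Kcnh7 (0.40, FDR = 0.0913), and neither passed without the pair (FDR = 0.174 and 0.234). In that form 5 other potassium channel genes passed, all lower (Kcnh4, Kcnip2, Kcnt1, Kcnab1 and Kcnk13). Of 18 RGS proteins, which shorten G protein signals, Rgs10 passed (-0.58, FDR = 0.0469), and 4 passed without the pair, all lower (Rgs9, Rgs10, Rgs4 and Rgs14). Of 58 clustered protocadherins 0 passed (edgeR) with all libraries and 9 without the pair, all higher. Within 20 Mb of Htt on chromosome 5, 3 of 391 genes passed, Qdpr, which recycles tetrahydrobiopterin (-0.59, FDR = 0.0469), the calcium channel subunit Cacna2d1 (0.39, FDR = 0.0799) and Gm43046 (0.58, FDR = 0.0957), near the 1.1% of all genes.

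**Figure D5:**
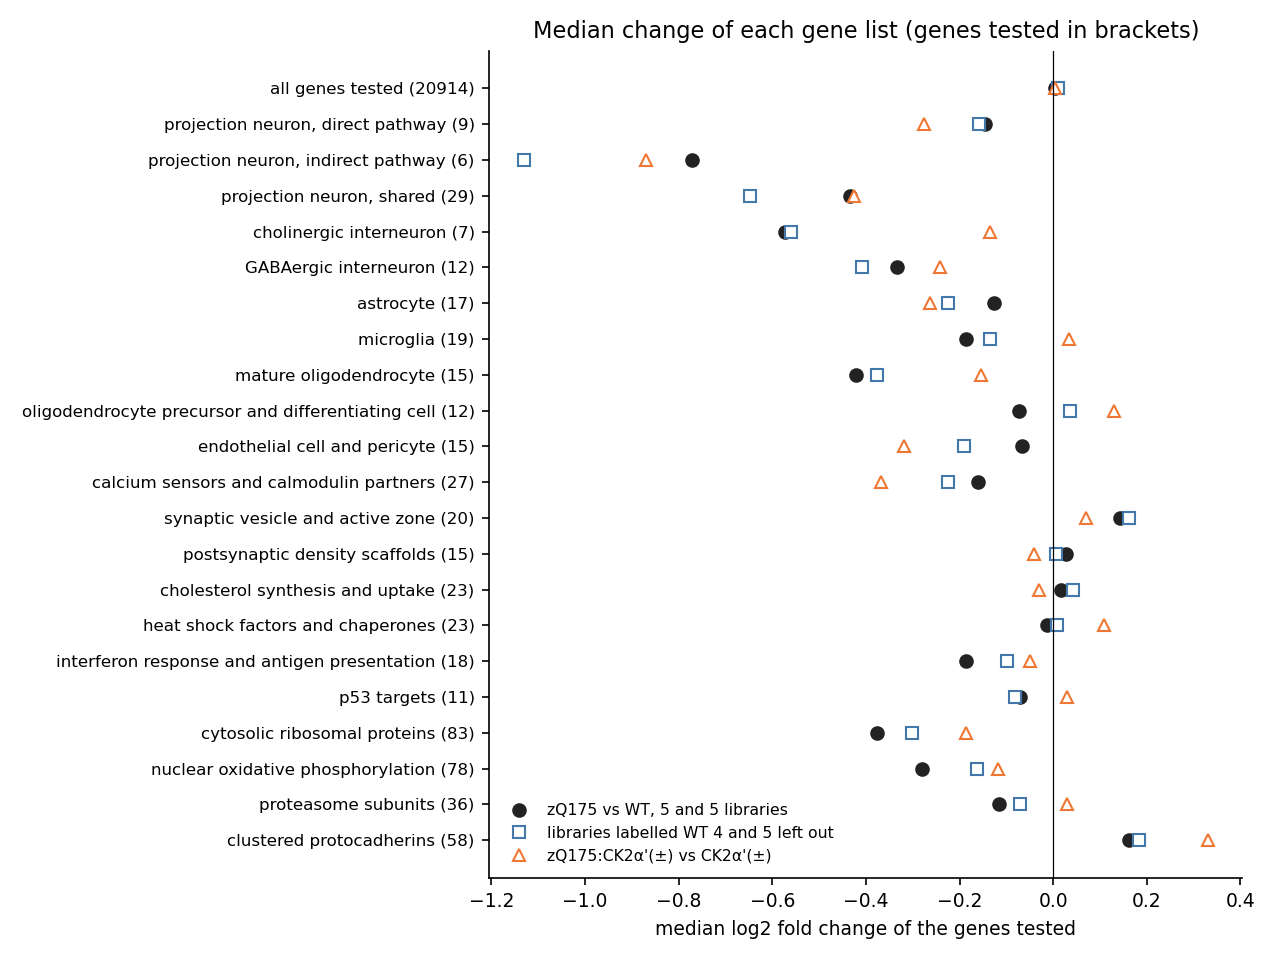
Median log2 fold change (zQ175 minus WT) of each gene list, with all 10 libraries (dots), without those labelled WT 4 and WT 5 (squares), and between zQ175:CK2α’(+/-) and CK2α’(+/-) mice (triangles), beside the median of all genes tested at 0.00. Indirect pathway markers move from -0.77 to -1.13 and shared MSN markers from -0.43 to -0.65, while ribosomal protein genes move from -0.38 to -0.30.

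The zQ175 allele was also compared with its absence in mice that share no library with these, the zQ175:CK2α’(+/-) and CK2α’(+/-) mice. Of the 230 genes, 187 (81.3%) had the same direction there, against 59.4% of all genes tested, and 25 passed, all 25 in the same direction. Differences were smaller there, with a median log2 fold change of 0.17 against 0.57 for the 81 higher genes and -0.18 against -0.58 for the 149 lower genes, which were chosen by the larger values. Across the 81 higher genes the values of the 2 comparisons had a Pearson r of -0.15, and across the 149 lower genes 0.42, as a description over genes, which are not independent. Of the 124 genes that passed in those mice, 113 had the same direction between zQ175 and WT, and 25 passed with all 10 libraries. The test of whether the zQ175 difference depended on the CK2α’ genotype passed for 1 gene of all tested (0.00478%), BC067074, and for 0 of the 230 (edgeR). For Apoe the log2 fold change was -0.62 between zQ175 and WT and -0.31 in the other mice (FDR = 0.334), for Cryab -0.66 and 0.08 (FDR = 0.912) and for Vps13c 0.44 and 0.07 (FDR = 0.902), and the test of that difference did not pass for them.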

How the data were processed

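Striatal RNA of 5 WT and 5 zQ175 mice was analysed beside 3 CK2α’(+/-) and 5 zQ175:CK2α’(+/-) libraries. Libraries were made with a stranded total RNA kit and sequenced as paired reads. Per the study's methods and the submitters' processing notes, the authors used Trimmomatic for trimming and HISAT2 2.1.0 for alignment to GRCm38, dropped duplicate, unmapped and poorly mapped reads, and counted the rest per gene with Subread 1.6.2. The deposited values are these raw counts. The deposited gene lengths are other values, summed exon lengths in bases, and were not used in tests. Whether counting used strand is not given in the sources used here.

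Counts were tested in R 4.3.3 with edgeR 4.0.16 (quasi-likelihood test, TMM normalization, filterByExpr, genotype as the only factor over 18 libraries), and every adjusted p is Benjamini-Hochberg over all genes tested. A count of 0 allows up to 3 counts, for counting error only. Gene symbols, types and spans came from the annotation given with the table's identifiers, and promoter sequences from RefSeq (GRCm38.p6). The 5 same-numbered pairs of WT and zQ175 libraries correlated between -0.31 and 0.23. Neither labels nor methods say that numbers pair mice, and these correlations cannot exclude a shared litter or batch. No 2 libraries of these groups agreed within counting noise. Genes named were the 10 higher and 10 lower of lowest p and the 5 of largest change in each direction without overlap. Both were taken among genes that passed, with a mean of at least 1 CPM and no provisional symbol (Gm or Rik). Named too were members of each gene list that passed (at most 6) with the 2 most abundant that did not, genes near Htt, and those said to be chosen after their values were seen. One gene that this rule takes is not reported here. Members and gene lists were chosen with earlier results of these data known. The test was checked on simulated data. Alternatives were DESeq2 1.42.0, limma 3.58.1 (voom), other scalings and filters, a robust fit, Xist as covariate, FDR 0.05, the replicate block, and leaving out libraries.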

Additional observations from a re-analysis of the deposited data

Results flagged for a closer look

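In 9 of 102 groups of 5 libraries examined, 1 library stood further from the others than Dixon's 95% limit of 0.71 for 5 values, where chance alone gives about 1 in 20 groups. Drd1 measured 36.1 CPM in zQ175 library 1 and 67.8 to 79.9 CPM in the other zQ175 libraries, and the summed shared MSN markers were 5282 CPM in the same library against 8155 to 9243 CPM. Prdm8 reached 28.8 CPM in zQ175 library 5 against 1.05 to 2.16 CPM, C1ql2 10.3 CPM against 0.521 to 2.53 CPM, and Slc17a7 202 CPM against 29.1 to 66.8 CPM in the other zQ175 libraries. Among WT libraries, Slc17a7 was low in WT library 1, at 11.9 CPM against 28.0 to 32.2 CPM. Car2 measured 192 CPM in WT library 3 against 123 to 143 CPM, and the summed mature oligodendrocyte markers were 8744 CPM in that library against 6446 to 7038 CPM. The summed cytosolic ribosomal protein genes were 4448 CPM in WT library 2 against 5553 to 5983 CPM. The effect of zQ175 on BC067074 differed with the CK2α’ genotype, with a log2 fold change of -0.45 between zQ175 and WT mice and 1.34 between zQ175:CK2α’(+/-) and CK2α’(+/-) mice, an interaction of 1.79 (edgeR FDR = 0.0951).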

How the results depend on the processing

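Of the 230 genes (81 higher, 149 lower, 47 in the gene lists), FDR 0.05 kept 51 (11, 40 and 17). DESeq2 passed 847 (396, 451 and 137), so that the share of higher genes was 46.8% against 35.2%. No filter on low counts gave 451 (141, 310 and 116), and a minimum of 10 counts in 5 of the 10 libraries gave 127 higher genes. A fit of only the 10 libraries gave 0 in each class (edgeR, 2337 genes at an unadjusted p under 0.05). With the replicate number as a block, 0 genes passed among 10 libraries in each class (edgeR, 1985 at an unadjusted p under 0.05) and 98 (35, 63 and 23) among 18. As neither labels nor methods say that numbers pair mice, the block is given as an alternative only. Leaving out 1 library at a time gave 0 to 587 genes, 0 to 227 higher, 0 to 360 lower and 0 to 110 in the lists. The count was 0 without WT library 3 or zQ175 library 5, 10 without WT library 1, 77 without zQ175 library 1, 133 without zQ175 library 3 and 587 without WT library 2, and the cause was not tested. The median log2 fold change of genes over 300 kb, 0.12, ranged from 0.0854 (without zQ175 library 1) to 0.132 over these fits, and that of Htt, -0.04, from -0.106 to 0.0193 (without WT library 2, FDR = 0.949). Settings chosen after the data were seen were leaving out the libraries labelled WT 4 and WT 5 (515, 179, 336 and 89), the same in DESeq2 (877, 372, 505 and 134), the same with only the remaining 8 libraries (139 in all, 30 higher), and leaving out zQ175 libraries 1 and 5 (0 in each class by edgeR, 2113 at an unadjusted p under 0.05, median of long genes 0.0722). The Xist covariate gave 161 genes, and other scalings, the robust fit and voom gave 196 to 313. The 67 named genes that passed kept their direction in all 1738 values computed, of which 663 no longer passed. Genes of a few CPM rest on few counts per library.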
